A study of Saccharomyces cerevisiae with 5 samples.

Results

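Nucleolar ribosome assembly factors are the proteins that bind, fold, modify and cut ribosomal RNA precursors before ribosomal subunits leave the nucleus. The 60 genes described here were a fixed list of names. The selection rule used no measured value, but the list was drawn up with earlier results of these data known. All 60 had a probe set of their own among the 5656 genes on the array, and 54 had enough signal to enter the test of 4242 genes. Transcripts were measured in Saccharomyces cerevisiae BY4741, a haploid laboratory strain, with 3 wild-type cultures and 2 cultures of its RSF2 deletion strain, Δrsf2 (RSF2, a zinc finger protein gene, is YJR127C). Each culture was 50 ml of rich medium with glycerol, a carbon source that yeast uses by respiration, as the only carbon source, and was taken at an A600 of 0.6. The labels call the cultures biological replicates and do not say whether more than 1 deletion isolate was used. The labels also mention a shift from dextrose to glycerol, but no time after a shift enters the comparison.

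In yeast, RNA polymerase I makes a long precursor in the nucleolus, and small nucleolar ribonucleoproteins (snoRNPs) and the small subunit processome assemble on it as it is made. The U3 snoRNP and the UTP proteins lead to the 40S subunit, while a separate series of factors, helicases and GTPases builds the 60S subunit. Genes of this group are known to rise together in fast growth and to fall together in stress or starvation.

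The arrays were checked first. Signals are given in arbitrary units, after scaling of every array to the same trimmed mean, 500. RSF2 had a signal of 204, 254 and 416 in the wild type, replicates 1 to 3. In Δrsf2 it was at the floor (28.1) in both arrays, at least 9.90-fold lower, as the genotype labels state. Its mean signal was under the limit for testing. URA3, deleted in BY4741, lay at the floor in all 5 arrays. LEU2 and MET17, also deleted in BY4741, were less uniform, at 207 and 62.4 in Δrsf2 replicate 1 and at or near the floor elsewhere. HIS3, another marker gene of BY4741, was at 110 to 682. Signal of the spike-in control CreX was 56025 and 59709 in the arrays numbered 1 of the wild type and of Δrsf2, against 2715 to 9393 in the other 3. For ACT1, the 3′ signal over the 5′ signal, a measure of RNA or label integrity, ran from 1.55 to 2.76 in 4 arrays and was 4.91 in Δrsf2 replicate 1.

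Across the 5 arrays, no assembly factor passed the test for a difference between Δrsf2 and the wild type. Of the 54 tested, 26 were higher (48.1%, against 47.7% of all genes) and 28 lower by value in Δrsf2. The median log2 difference (Δrsf2 minus wild type) was -0.03, with the same value of -0.03 over all genes tested. The largest positive difference was 0.98 for RRS1 and the largest negative one -0.75 for TIF6, with standard errors of 0.46 to 0.76 over the 54. For 45 of the 54 the difference was smaller than its own standard error, as it was for 73.4% of all genes. The test was limma's moderated fit with Benjamini-Hochberg adjustment over 4242 genes. It called 0 of the 54 at an adjusted p of 0.05 and 0% of all genes. At an unadjusted p under 0.05 it called 0 factors against 3.23% of all genes, and the smallest unadjusted limma p of a factor was 0.114 (RRS1).

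Single arrays moved the count over all genes. Without Δrsf2 replicate 1 limma called 53 genes and without Δrsf2 replicate 2 it called 59, of which 0 were assembly factors in either case. In such fits the lone mutant array is assumed to vary like the wild type. Signals are shares of the mRNA on the array, so fewer cells that express a gene and less RNA per cell cannot be told apart.

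**Figure D1:**
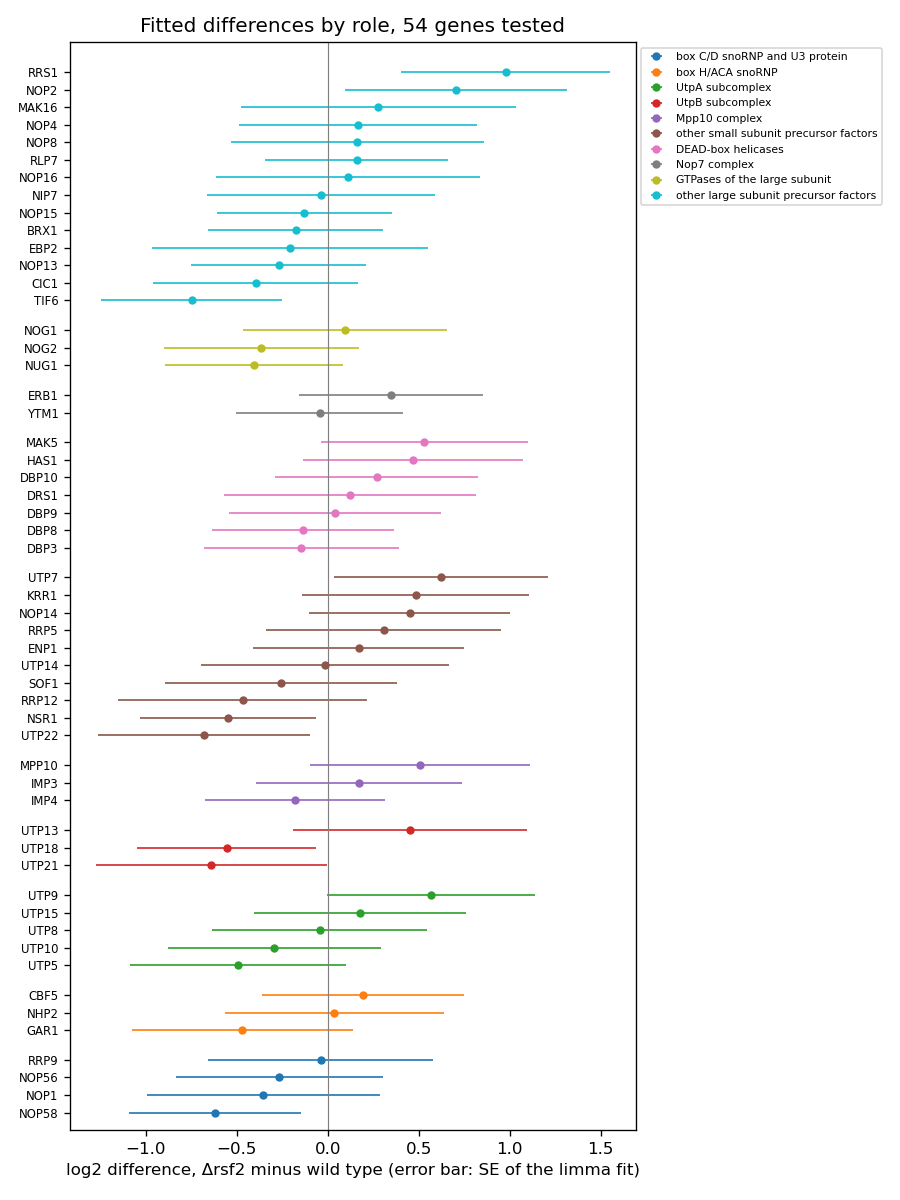
Fitted log2 differences (x axis, Δrsf2 minus wild type) of the 54 tested factors, 1 line per gene, coloured by role, with bars for the standard error of the limma fit. Most bars cross 0, and the points run from -0.75 (TIF6) to 0.98 (RRS1).

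Proteins of box C/D snoRNPs, which mostly guide methylation of ribosomal RNA, were all lower by value (4 of 4, median log2 difference -0.31). RRP9 was lower by little (-0.04), and 2217 of all 4242 genes were lower by value. NOP58, a core protein of the box C/D particles, had signals of 1692, 3347 and 2918 in wild-type cells and 1782 and 1544 in Δrsf2. Wild-type replicate 1 lay between the Δrsf2 arrays, so the groups overlapped. The fit gave -0.62 ± 0.47 (log2, SE; limma adjusted p 0.9996). NOP58 had 4 probe sets, and all 4 were lower by value, from -0.05 to -0.88. The probe set at -0.88 had 970, 1963 and 1578 against 702 and 881, without overlap, while the groups overlapped in the others. NOP1, the methyltransferase fibrillarin, was at 234, 1049 and 768 in wild-type cells against 501 and 402 in Δrsf2. Its wild-type range enclosed both mutant arrays, and its SD over the wild-type arrays, 1.14 on the log2 scale, was among the 3 largest of the tested factors. NOP56, the partner of NOP58, was at -0.26 ± 0.57, with overlapping groups. RRP9, a protein specific to the U3 particle, had signals of 172, 461 and 342 against 231 and 371, with both mutant values inside the wild-type range, and was at -0.04 ± 0.62.

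For the box H/ACA particles, which direct the change of uridine to pseudouridine, the 3 genes had a median log2 difference of 0.04. CBF5, the pseudouridine synthase, had signals of 440, 1409 and 1417 in wild-type cells and 976 and 1227 in Δrsf2. GAR1 was at 3713, 5927 and 2518 against 4759 and 1593. NHP2 was at 5310, 3331 and 2562 against 6296 and 2121. For GAR1 and NHP2 the Δrsf2 arrays differed from each other by 1.58 and 1.57 on the log2 scale, with replicate 1 the higher. The fitted differences of CBF5, NHP2 and GAR1 were 0.19 ± 0.56, 0.04 ± 0.60 and -0.47 ± 0.61 (SE).

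UtpA, the UTP subcomplex that binds the start of the precursor, had 2 tested genes higher and 3 lower by value. UTP9 had signals of 111, 124 and 151 in wild-type cells and 266 and 135 in Δrsf2, a log2 difference of 0.57 ± 0.57 (SE). UTP5 was at 360, 249 and 270 against 297 and 143, a log2 difference of -0.49 ± 0.59. In both genes the groups overlapped and Δrsf2 replicate 1 was well above replicate 2. UTP8, UTP10 and UTP15 lay between these at -0.04, -0.29 and 0.18.

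UtpB, a second subcomplex with WD-repeat proteins, includes UTP18, with close replicates. It had signals of 478, 506 and 557 in wild-type cells and 360 and 339 in Δrsf2. The groups did not overlap, and UTP18 was 1.47-fold lower by geometric mean. On the log2 scale this was -0.56 ± 0.49 (SE, limma adjusted p 0.9996). UTP21 had 155, 390 and 419 against 156 and 228, so its difference of -0.64 ± 0.63 rested on wild-type replicates 2 and 3. UTP13 went the other way by value, with 110, 324 and 317 against 333 and 283, and a difference of 0.45 ± 0.64.

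The Mpp10 complex binds U3 within the processome. MPP10 had signals of 132, 168 and 269 in wild-type cells and 342 and 194 in Δrsf2, with a log2 difference of 0.51 ± 0.60 (SE). IMP4 had 412, 534 and 615 against 519 and 397, with overlap, and a difference of -0.18 ± 0.49. IMP3 was at 0.17 ± 0.57. All 3 were higher in Δrsf2 replicate 1 than in replicate 2.

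Of 10 other tested factors of the small subunit 5 were higher and 5 lower by value. UTP22, which links processome assembly to regulation of ribosomal protein genes, had signals of 210, 402 and 296 in wild-type cells and 159 and 209 in Δrsf2. The groups missed overlap by a small margin, 209 against 210, and UTP22 was 1.60-fold lower. On the log2 scale this was -0.68 ± 0.58 (SE, limma adjusted p 0.9996). The other 5 probe sets listed for UTP22 were dimmer and gave -0.50 to 1.29, so they disagree in sign. NSR1, the yeast nucleolin, was at 503, 939 and 757 against 543 and 435, a difference of -0.55 ± 0.48. UTP7, a WD-repeat protein, was at 121, 167 and 193 against 335 and 176, a difference of 0.62 ± 0.59. For NSR1 and UTP7 1 mutant array lay within the wild-type range. NOP14, a scaffold of the processome, was at 83.4, 143 and 124 against 171 and 142, a difference of 0.45 ± 0.55. The remaining 6 (SOF1, ENP1, KRR1, RRP12, RRP5 and UTP14) ran from -0.47 to 0.48.

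DEAD-box helicases remodel RNA in both precursors. Of the 7 tested 5 were higher by value (median log2 difference 0.12), and the range from -0.14 to 0.53 was narrow. MAK5, needed for the 60S subunit, had signals of 89.3, 143 and 156 in wild-type cells and 220 and 151 in Δrsf2, with a difference of 0.53 ± 0.57 (SE). DBP3, at the low end, had 321, 506 and 617 against 513 and 345 and a difference of -0.14 ± 0.53. DRS1 was at 74.8, 287 and 285 against 188 and 211. Both mutant values lay inside the wild-type range, which was wide because replicate 1 was low.

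For the 60S subunit, the Nop7 complex was measured by ERB1 and YTM1, which join NOP7 on early precursors. YTM1 had the steadiest wild-type signals, 560, 570 and 597, with an SD of 0.05 on the log2 scale. In Δrsf2 it was at 624 and 498, and the log2 difference was -0.04 ± 0.46 (SE). ERB1 was at 348, 553 and 664 against 771 and 532, a difference of 0.35 ± 0.50. Of the GTPases, NUG1 was at 461, 687 and 602 against 498 and 378, a difference of -0.41 ± 0.49. NOG1 was at 235, 540 and 469 against 398 and 438, a difference of 0.10 ± 0.56, and NOG2 at -0.36 ± 0.53. The groups overlapped for all 5 of these genes.

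Of 14 other tested 60S factors 7 were higher and 7 lower by value, and they held both ends of the list. RRS1, which helps bring the 5S ribosomal RNA particle into the 60S precursor, had signals of 123, 148 and 206 in wild-type cells and 264 and 356 in Δrsf2. Both mutant arrays lay above every wild-type array, and RRS1 was 1.97-fold higher by geometric mean. On the log2 scale this was 0.98 ± 0.57 (SE, limma adjusted p 0.9996). NOP2, a methyltransferase of the large ribosomal RNA, had 124, 219 and 325 against 309 and 368, a difference of 0.70 ± 0.61. Wild-type replicate 3 lay between the mutant arrays of NOP2.

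TIF6, the factor that keeps 60S subunits from joining 40S subunits too early, showed a different kind of pattern. Its wild-type signals were close together at 1651, 1810 and 1751. Δrsf2 replicate 2 was among them at 1736, and Δrsf2 replicate 1 was at 617. The log2 difference of -0.75 ± 0.50 (SE) therefore rested on 1 array. Without Δrsf2 replicate 1 it was -0.00, and without Δrsf2 replicate 2 it was -1.49, with a limma adjusted p of 0.131.

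EBP2, MAK16 and NOP8, all needed for 60S precursors, had the largest gaps between the mutant arrays among the 54 tested. EBP2 had signals of 358, 1223 and 885 in wild-type cells and 1615 and 247 in Δrsf2, so 1 mutant array was the highest of the 5 and the other the lowest. MAK16 was at 155, 343 and 166 against 578 and 109. NOP8 was at 157, 367 and 326 against 562 and 157. Their fitted differences, -0.21 ± 0.76, 0.28 ± 0.75 and 0.16 ± 0.69 (SE), average over these opposite values. NOP16 had the largest spread in the wild type, an SD of 1.42 on the log2 scale. It was at 163, 1068 and 700 in wild-type cells against 668 and 429 in Δrsf2.

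**Figure D2:**
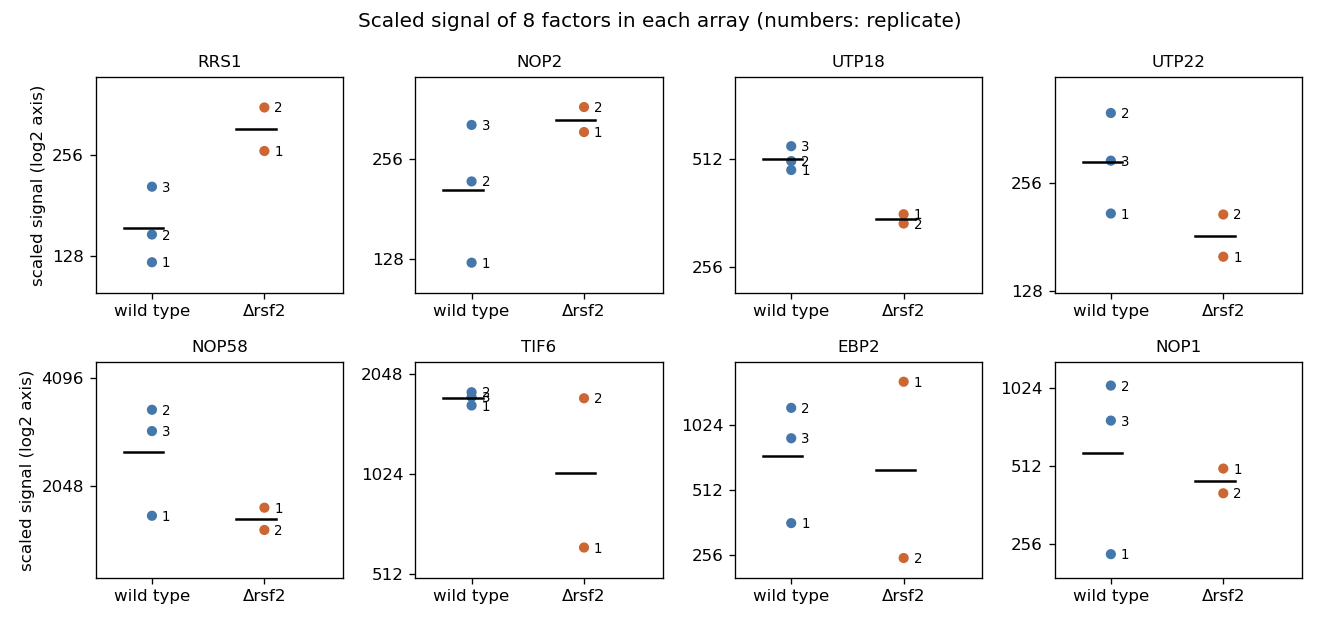
Scaled signal in arbitrary units (y axis, log2 scale, its range set per panel) of 8 factors in the wild type (blue) and Δrsf2 (orange). Each point is 1 array with its replicate number, and the line is the geometric mean. RRS1, UTP18 and UTP22 have groups that do not overlap, while TIF6 and EBP2 have mutant arrays far apart.

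Few factors had groups without overlap. RRS1 alone of the 54 lay higher in each mutant array than in any of the wild type, against 6.74% of all genes. UTP18 and UTP22 were lower in both, or 2 of 54, against 8.25% of all genes. With a difference of at least 1.5-fold as well, RRS1 remained on the higher side, against 4.6% of all genes, and UTP22 on the lower side, against 6.01%. These counts turned on single arrays. Without Δrsf2 replicate 1 they were 2 higher and 14 lower, against 20.2% and 18.5% of all genes. Without Δrsf2 replicate 2 they were 16 higher and 2 lower, against 17.2% and 22.4%. Without wild-type replicate 1 they were 2 and 11, against 5.78% and 18%, without replicate 2 they were 2 and 0, against 5.4% and 6.77%, and without replicate 3 they were 6 and 1, against 10.8% and 6.55%. The shares over all genes thus moved with the array left out as well.

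The 6 factors under the signal limit were UTP4, UTP6, UTP20, DBP7, NOP7 and NOP12, with wild-type mean signals of 54.8 to 84.4. UTP6 had 50.1, 90.8 and 81.9 in wild-type cells and 174 and 58.7 in Δrsf2. NOP12, which acts on 25S ribosomal RNA, had 75.6, 85.3 and 41.6 against 239 and 36.5. NOP7 had 88.8, 83.8 and 61.3 against 187 and 46.1, and UTP20 had 46.8, 73.7 and 65.7 against 157 and 36.4. In these 4 genes Δrsf2 replicate 1 was the highest of the 5 arrays. Before rescaling, UTP6, NOP12, NOP7 and UTP20 had signals of 34.9, 47.9, 37.4 and 31.5 in that array. LEU2, a gene deleted in BY4741, was at 207 there after rescaling, above UTP6, NOP7 and UTP20. Some tested factors also lay under that LEU2 value in this array, among them UTP22 (159), UTP21 (156), DRS1 (188) and NOP14 (171). UTP4 was at 40.2, 75.3 and 48.8 against 74.4 and 64.1. DBP7 lay at the floor of 28.1 in wild-type replicate 1, and was at 55.9 and 169 in the other wild-type arrays and 45.4 and 172 in Δrsf2. UTP20 had 10 probe sets that disagreed in sign, from -0.85 to 1.03. When all genes were tested, the 6 had log2 differences of 0.27 to 0.53 and limma adjusted p-values of 1.

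By median, the assembly factors differed from all genes in most single arrays. Against the wild-type mean of each gene, the median of the 54 was -0.49, 0.25 and 0.24 in wild-type replicates 1 to 3 and 0.12 and -0.21 in Δrsf2 replicates 1 and 2. All genes tested had -0.33, 0.08, 0.24, -0.08 and 0.02 in the same order. Relative to all genes the factors were thus at -0.16, 0.17 and 0.00 in wild-type cells and at 0.20 and -0.23 in Δrsf2. In the same order 19, 38, 27, 37 and 19 of the 54 lay above the all-gene median, so in each array some factors went the other way. On this relative scale both mutant arrays stood outside the wild-type range, on opposite sides of it. Both margins were small, 0.20 against 0.17 for Δrsf2 replicate 1 and -0.23 against -0.16 for Δrsf2 replicate 2. Without subtraction of the all-gene median, both mutant arrays (0.12 and -0.21) lay within the wild-type range of -0.49 to 0.25.

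**Figure D3:**
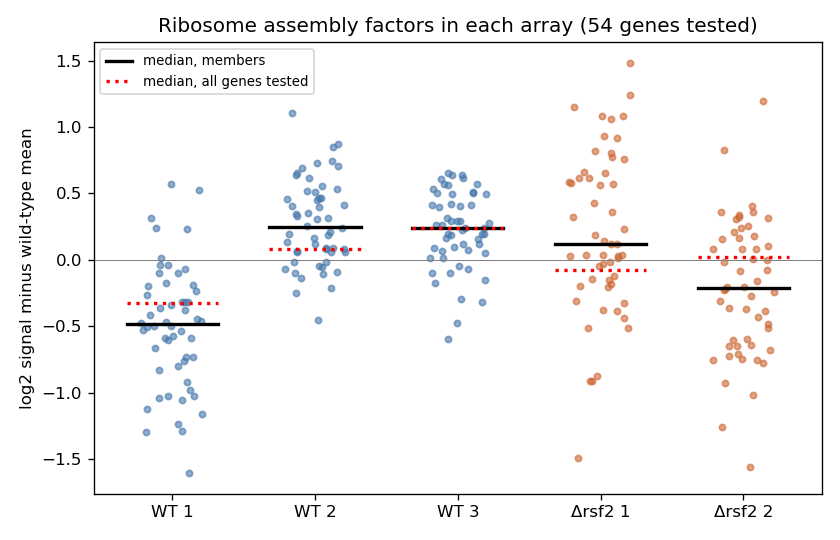
Log2 signal minus the wild-type mean of the gene (y axis) for the 54 tested factors in each array. Points are genes, black lines their medians and red dotted lines the medians of all 4242 genes. Wild-type replicate 1 (-0.49) and Δrsf2 replicate 2 (-0.21) have the lowest medians.

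The same was seen gene by gene. Wild-type replicate 1 held the lowest signal for 32 of the 54 (59.3%, against 36.5% of all genes) and Δrsf2 replicate 2 for 19 (35.2%, against 21.9%). Highest signals were in wild-type replicate 2 for 19 and in Δrsf2 replicate 1 for 19 (35.2% each, against 17.8% and 21.2% of all genes). Between the mutant arrays, 38 of the 54 (70.4%) were higher in replicate 1, against 45.1% of all genes.

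The 5 arrays were then compared within the sets of high and low CreX signal. In the high set, wild-type replicate 1 against Δrsf2 replicate 1, 49 of the 54 factors were higher in Δrsf2, with a median log2 difference of 0.62, against 60.2% and 0.21 for all genes. In the low set, wild-type replicates 2 and 3 against Δrsf2 replicate 2, 46 of the 54 were lower, with a median of -0.48, against 55.8% and -0.11 for all genes. Both held for 41 of the 54 (75.9%), against 36% of all genes. No factor showed the reverse, lower in the high set and higher in the low set, against 851 of all 4242 genes. The high set has 1 array per group, so it gives no test, and the difference between the sets was not tested.

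With quantile normalisation, which forces the same distribution of signals on every array, fewer factors showed the pattern, as did fewer of all genes. The high set had 36 of 54 higher (median 0.27), against 44.5% and -0.10 for all genes. The low set had 42 of 54 lower (median -0.34), against 52.8% and -0.05 for all genes. Both held for 28 of 54 (51.9%), against 26% of all genes. The medians relative to all genes became -0.09, 0.13 and -0.08 in wild-type cells and 0.25 and -0.25 in Δrsf2. The mutant arrays thus still lay on opposite sides of the wild type, while wild-type replicate 1 was then close to replicate 3.

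**Figure D4:**
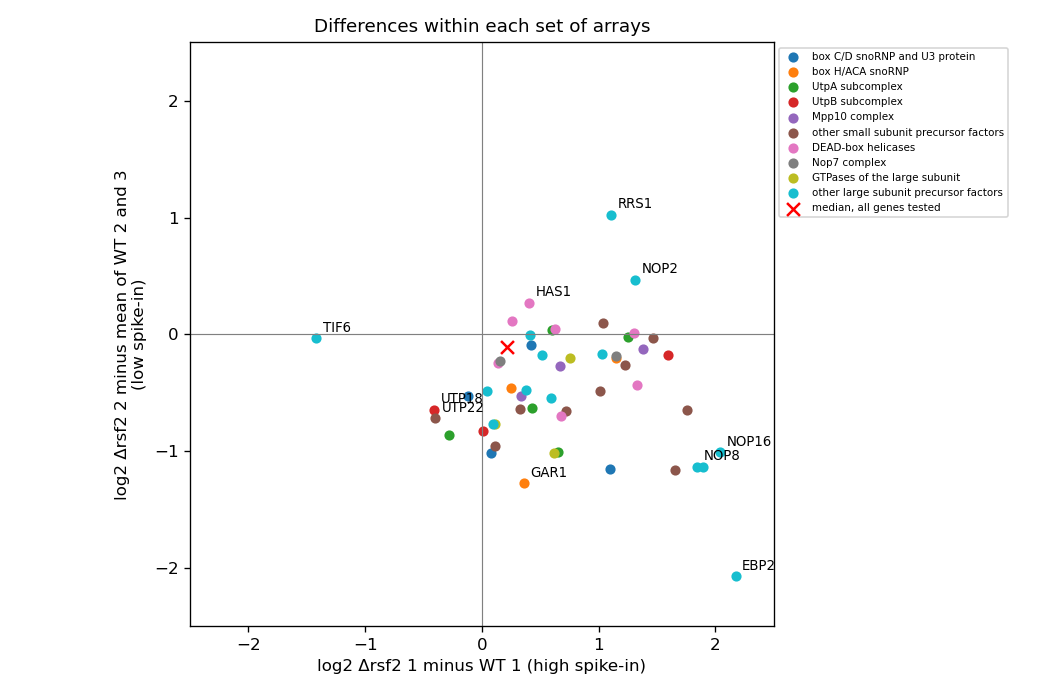
Log2 difference of each of the 54 factors within the arrays of high spike-in signal (x axis, Δrsf2 1 minus wild type 1) and within those of low signal (y axis, Δrsf2 2 minus the mean of wild type 2 and 3), coloured by role. The lower right region holds 41 genes, with EBP2 farthest out, and RRS1 is high on both axes.

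EBP2 was the extreme of this pattern, at 2.17 in the high set and -2.07 in the low set. NOP16 had 2.04 and -1.01, MAK16 1.90 and -1.14, NOP8 1.84 and -1.13, RRP5, which acts in both subunits, 1.76 and -0.65, and UTP14, an activator of a processome helicase, 1.66 and -1.16. With quantile normalisation EBP2 was at 1.92 in the high set and -1.96 in the low set. Each set holds 1 mutant array, so these values carry no measure of spread within Δrsf2. Of the 54 factors 5 were lower in both sets (9.26%, against 19.8% of all genes) and 8 were higher in both (14.8%, against 24.2%). Among the 5 were UTP18, at -0.41 and -0.65, and UTP22, at -0.40 and -0.72. Among the 8 were RRS1, at 1.10 and 1.02, and NOP2, at 1.31 and 0.46. Of the 7 helicases all were higher in the high set, while in the low set 3 were lower and the median was 0.01.

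Factors of the same pathway outside the list lay alongside it. Of 40 other small subunit factors 35 were tested, and 17 were higher and 18 lower by value (median log2 difference -0.04). Of 49 other 60S factors 38 were tested, with 21 higher, 17 lower and a median of 0.04. Limma called 0 genes of these lists, and 0 at an unadjusted p under 0.05. The median relative to all genes was 0.25 and -0.28 in the mutant arrays for the small subunit list and 0.44 and -0.25 for the 60S list. In the wild type it was -0.34, 0.18 and 0.07 for the small subunit list, a range that holds Δrsf2 replicate 2, and -0.04, 0.09 and 0.04 for the 60S list, a range that holds neither mutant array. The smallest p-values in these lists were those of BUD23, a methyltransferase of 18S ribosomal RNA, at -1.71 ± 0.96 (SE), PXR1 at 0.60 ± 0.46, RSA1 at 0.99 ± 0.59 and MRT4 at -0.76 ± 0.48, with limma adjusted p-values of 0.9996. BUD23 had signals of 105, 511 and 459 in wild-type cells, the floor of 28.1 in Δrsf2 replicate 1 and 280 in Δrsf2 replicate 2. Its value rested on the array at the floor, since Δrsf2 replicate 2 was at -0.05 from the wild-type mean and replicate 1 at -3.37.

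RNA polymerase I, which makes the precursor, had 6 of 12 tested genes higher and a median log2 difference of -0.01. Its second largest subunit RPA135 was at 0.58 ± 0.58 (SE) and RRN10 at -0.28 ± 0.80. The RNA exosome, which trims precursors, had 8 of 12 higher and a median of 0.10. Its nuclear subunit RRP6 had signals of 96.7, 116 and 143 in wild-type cells and 246 and 266 in Δrsf2, without overlap, and RRP4 was at 0.62 ± 0.62. The log2 difference of RRP6 was 1.13 ± 0.55, with a limma adjusted p of 0.9996. Regulators of ribosome genes had 5 of 10 higher and a median of -0.00, with the TOR complex subunit KOG1 at -1.07 ± 0.59 and the repressor STB3 at -0.62 ± 0.62. Medians relative to all genes in the mutant arrays were 0.14 and -0.03 for RNA polymerase I, 0.38 and 0.27 for the exosome and 0.05 and -0.11 for the regulators.

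General stress genes lay on the opposite side from the assembly factors in 3 of the 5 arrays, wild-type replicates 1 and 2 and Δrsf2 replicate 2. Their median relative to all genes was 0.70, -0.45 and -0.22 in wild-type cells and 0.06 and 0.77 in Δrsf2, so it was highest in wild-type replicate 1 and Δrsf2 replicate 2, where the factors were lowest. With quantile normalisation it was 0.16, -0.20, 0.13, 0.13 and 0.94. Of 20 stress genes 17 were higher in Δrsf2 by value, with a median of 0.52, and 0 passed limma's adjusted p (2 at an unadjusted p under 0.05). The chaperone SSA4 was at 2.00 ± 0.58 (SE) and the aldehyde dehydrogenase ALD3 at 2.01 ± 0.71. ALD3 had signals of 1347, 485 and 536 against 1150 and 7049, so its value rested on Δrsf2 replicate 2. Its log2 signal there was 3.32 above the wild-type mean, and within the high set the difference was -0.23. The part of culture state, of the high CreX signal and of the ACT1 ratio of 4.91 in Δrsf2 replicate 1 in these array differences was not tested.

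**Figure D5:**
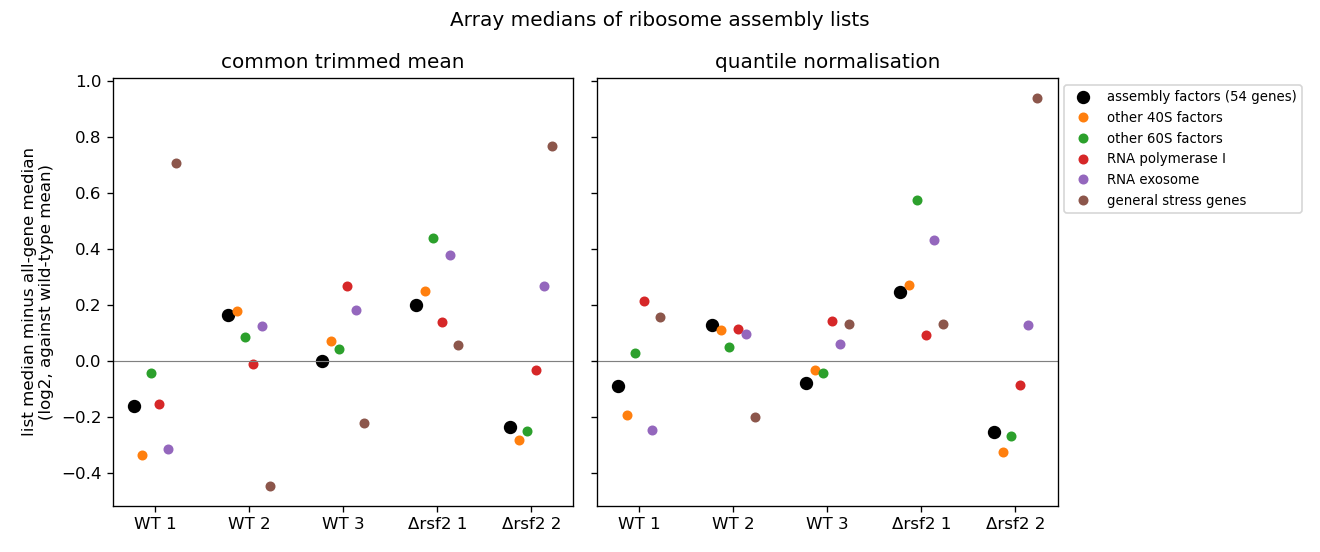
Median log2 signal against the wild-type mean, minus the median of all genes (y axis), for the assembly factors and 5 other lists in each array, with arrays scaled to a common trimmed mean (left) and quantile normalised (right). The assembly factors (black) are at 0.20 and -0.23 in the mutant arrays on the left, and the stress genes are highest in Δrsf2 replicate 2, at 0.77.

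Some assembly genes lie next to each other in the yeast genome. No pair of the 60 was adjacent in the RefSeq gene order, and 5 of them had a neighbour among the other assembly lists. GAR1 and its neighbour RPF1, a 60S factor, were at 0.36 and 1.11 in the high set and -1.28 and -1.23 in the low set. NOG2 and ESF2 were at 0.62 and 0.22 and then at -1.01 and -0.82. UTP9 and RIX1 were at 1.26 and 0.68 and then at -0.02 and -0.53, UTP13 and RSA3 at 1.59 and 0.09 and then at -0.18 and -0.31, and DBP8 and NMD3 at 0.14 and -0.19 and then at -0.25 and -0.71. In 4 of the 5 pairs both genes were higher in the high set, and in all 5 both were lower in the low set. Most genes of these lists did the same. In the high set 90.7% of the assembly factors, 88.6% of the other small subunit factors and 89.5% of the other 60S factors were higher. In the low set 85.2%, 77.1% and 73.7% were lower. Whether neighbours resembled each other more than other genes of these lists was not tested.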

How the data were processed

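The authors deposited a linear signal intensity for each probe set, computed in MAS5 (per the submitters' processing notes). Version and settings of MAS5 are not given in the sources used here. Before rescaling, trimmed means were 500.3 to 500.7 in 4 arrays and 100.1 in Δrsf2 replicate 1, so each array was rescaled to a 2% trimmed mean of 500. Of 9335 probe sets 6504 had 1 gene in the platform annotation, and each was found in the RefSeq yeast gene table (assembly R64), used only for names and gene order. For each gene the probe set of highest mean was used, with a floor at the 10th percentile (28.1), which is no detection limit. A filter at the 25th percentile of mean log2 signal (a signal of 129) left 4242 genes. Groups were compared with limma 3.58.1 in R 4.3.3 (lmFit, eBayes with trend, group as the only term), with Benjamini-Hochberg adjustment and a threshold of 0.05. The number of arrays limits the precision.

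The rule for the 60 factors used no measured value, but they, the role groups and the lists were chosen with earlier results of these data known. Signals were given in full for the 15 factors of smallest p, the ends of each role group, the factors of largest wild-type SD or mutant gap, and those under the signal limit. In each other list the 2 genes of smallest p were named, mostly by their difference alone. The remaining factors that are named, such as NHP2, NOP56, RRP5, UTP14 and the neighbouring genes, were chosen after their values were seen. A search for promoter motifs was planned, but promoter sequences were not used here. Arrays were called high or low by a CreX signal above or below 20000. Alternatives covered the normalisation, floor, filter, probe sets, model and left-out arrays.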

Additional observations from a re-analysis of the deposited data

How the results depend on the processing

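Under each alternative on all 5 arrays, 0 assembly factors passed limma's adjusted p. The only call was 1 factor (EBP2) in the 3 arrays of low CreX signal, where the wild-type pair was compared with 1 mutant array. The median of the factors was then -0.48, and 0.62 within the high set. Over all genes the count was 0 with all 5 arrays, 2 with the replicate block, 435 in the low set (63 with quantile normalisation, chosen after seeing the data) and 0 to 59 when 1 array was left out. Replicate numbers are shared by the groups, but the numbers were not taken as pairs. Over genes, deviations from the group mean correlated at 0.27 for the arrays numbered 1 and -0.09 for those numbered 2. With 2 mutant arrays these deviations mirror each other, so the correlations are tied and cannot decide whether the numbers are pairs. The replicate block gave a median of 0.07 for the factors, and leaving out 1 array gave -0.33 to 0.14. Factors at least 1.5-fold higher without overlap numbered 1, and 2 with quantile normalisation or with centred medians, 0 with the stricter filter, 30 within the high set (18 with quantile normalisation) and 2 to 16 when 1 array was left out. All genes at that level made up 4.6%, 4.15% with quantile normalisation, 3.94% with centred medians and 2.69% with the stricter filter. Within the high set they made up 32.9% (17.8% with quantile normalisation), where 1 array against 1 cannot overlap. Those lower numbered 1, and 3 with quantile normalisation, 5 with centred medians, 0 with the stricter filter or the mean of probe sets, 2 with plain probe sets, 22 without the high arrays (16 with quantile normalisation), 5 within the quantile-normalised high set and 0 to 14 when 1 array was left out. Over all genes the shares were 6.01%, 8.44% with quantile normalisation, 7.99% with centred medians and 7.43% with the stricter filter. They were 5.89% with the mean of probe sets and 6.1% with plain probe sets. Without the high arrays the share was 26.1% (23.1% with quantile normalisation), and within the quantile-normalised high set 26.9%. The cause of these shifts was not tested, beyond the fewer genes or arrays that some settings hold. Of 30 named and tested factors 7 kept their sign in every setting that tested them (RRS1, TIF6, UTP22, NOP2, UTP18, MAK5 and NOP14). TIF6 had a value that rounds to 0 without Δrsf2 replicate 1. Of these only TIF6 and UTP18 were tested in every setting. The stricter filter left out RRS1, UTP22, NOP2, MAK5 and NOP14. UTP22 was also missing with the mean of probe sets, and NOP14 with the higher floor and with plain probe sets. Among differences above their SE the sign turned within the high set for NOP58 (0.075, and 0.26 with quantile normalisation), NSR1 (0.11) and UTP21 (0.010), and without the high arrays for UTP7 (-0.031).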
